A study of Mus musculus with 9 samples.

Results

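The 9 genes described here code for enzymes that carry squalene to cholesterol: Sqle, Lss, Cyp51, Msmo1, Nsdhl, Hsd17b7, Ebp, Sc5d and Dhcr7. They were taken by name from the pathway, out of 19329 gene symbols in the deposited tables. No cutoff on a measured value was used, but earlier results of these data were known. All 9 were present and passed the filter on low counts. RNA was sequenced from the livers of 9 C57BL/6J mice, an inbred strain, kept on a cycle of light and dark. One group of 5 mice was fed chow throughout, and the other group of 4 mice was fed a high-sucrose diet (HSD) for 3 weeks from the age of 8 weeks. All livers were taken at 11 weeks, and no source used here states their sex. Each library is a separate animal, and SDs are therefore between mice.

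Cholesterol is built from acetyl-CoA by way of mevalonate and the linear hydrocarbon squalene. Sqle adds an oxygen to squalene and Lss folds the product into lanosterol, the first sterol. Cyp51 then starts the removal of the extra methyl groups of lanosterol, and a demethylase complex of Msmo1, Nsdhl and Hsd17b7 removes the others. Ebp moves a double bond of the ring, Sc5d puts in a further double bond and Dhcr7 reduces a double bond. All of these enzymes sit in membranes of the endoplasmic reticulum or nearby, and the liver is a main site of the pathway. Transcription of the pathway is driven in mammals by SREBP-2, a factor that is released from the membrane when sterols run low.

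Libraries held 12769668 to 25913869 estimated counts, and the 9 members had 686 to 14661 counts per liver. Counting error was not separated from the spread between mice. Of 12091 genes tested with edgeR, 3.44% were higher on HSD and 3.23% were lower at an adjusted p under 0.05. The library labels fall into 2 series, the first holding Chow 1 to 4 with HSD 1 and 2, and the second holding Chow 5 with HSD 3 and 4. Hepatocyte marker genes summed to 75451 to 142909 CPM (counts scaled to a common library total) on chow and 107639 to 139592 on HSD, with 1 of 9 lower. Kupffer cell markers summed to 153 to 356 and 97.5 to 199 CPM, with 0 of 8 called, and red blood cell markers to 182 to 459 and 115 to 157 CPM, with 1 of 5 lower. All 8 Kupffer estimates were negative, with a median log2 fold change of -0.59. Of these 8, 4 had an unadjusted edgeR p under 0.05, against 23.7% of all genes. Chow 1 held the acute-phase transcript Saa2 at 10112 CPM against 3.69 to 39.5 in the other livers. The clock gene Arntl was at 4.40, 1.63, 9.24, 1.35 and 1.56 CPM in Chow 1 to 5 and at 9.15, 4.22, 4.23 and 4.20 in HSD 1 to 4, so that the livers differed in clock state within a diet.

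The members lie on 8 chromosomes of the mouse genome (GRCm38, GENCODE gene models), so they share a pathway and not a locus. Sqle spans chr15:59315077-59331192, Lss chr10:76531588-76557138, Cyp51 chr5:4081145-4104746, Msmo1 chr8:64718139-64733792 and Nsdhl chrX:72918557-72958514. Hsd17b7 spans chr1:169949535-169969241, Ebp chrX:8185329-8193512, Sc5d chr9:42251595-42264256 and Dhcr7 chr7:143823145-143848410. Between 0% and 3.88% of the 31-base sequences of each member occurred in other genes, the highest share being that of Cyp51, whose gene overlaps Akap9 on the opposite strand. Lss overlaps an antisense gene, 4930483K19Rik, which is not listed in the tables.

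Promoter sequence was available for 8 of the 9 members in RefSeq (GRCm38.p6), in 10 windows of 250 bases before a gene start. Each window is described here because the pathway is known for joint control at these sites. The motifs were searched on both strands. They were CCAAT, the site of NF-Y, GGGCGG, the site of Sp1, CACGTG, an E-box, and TCACCTCA, a relative of the SREBP site that was added to the search after the sequences had been seen. CCAAT was found in 8 of 10 windows, against 33.8% of all 32851 windows in RefSeq, and GGGCGG in 9 of 10, against 32.7%, each in at least 1 window of all 8 genes. CACGTG was found in 3 of 10 windows (Hsd17b7, Dhcr7 and Sc5d), against 6.02% of all. TCACCTCA was found in 2 of 10 (Hsd17b7 and Cyp51), against 0.947%. TCACNCCAC, the core of the sterol regulatory element that SREBPs bind, was found in 0 of 10, against 1.05%. These matches are descriptions of the letters and not of binding, which was not measured. The windows shown are those of the 2 members whose ratio differed most between the diets, Ebp and Sc5d, and of the 2 that hold TCACCTCA. Each is printed on the minus strand, which is the strand of the gene, and only up to the gene start in GENCODE. Capitals mark CCAAT (or ATTGG, the same site on the other strand), CACGTG and TCACCTCA.
Ebp, chrX:8193513-8193762: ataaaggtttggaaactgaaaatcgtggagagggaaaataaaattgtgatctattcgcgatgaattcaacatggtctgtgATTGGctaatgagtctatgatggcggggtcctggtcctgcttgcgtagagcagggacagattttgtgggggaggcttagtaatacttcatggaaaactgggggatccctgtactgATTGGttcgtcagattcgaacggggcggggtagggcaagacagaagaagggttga
Sc5d, chr9:42264301-42264550: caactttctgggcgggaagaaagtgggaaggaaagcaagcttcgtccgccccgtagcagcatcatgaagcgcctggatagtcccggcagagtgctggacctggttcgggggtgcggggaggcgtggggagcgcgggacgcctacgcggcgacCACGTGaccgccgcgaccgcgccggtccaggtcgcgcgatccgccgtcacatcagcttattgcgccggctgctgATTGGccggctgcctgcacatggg
Cyp51, chr5:4104747-4104947: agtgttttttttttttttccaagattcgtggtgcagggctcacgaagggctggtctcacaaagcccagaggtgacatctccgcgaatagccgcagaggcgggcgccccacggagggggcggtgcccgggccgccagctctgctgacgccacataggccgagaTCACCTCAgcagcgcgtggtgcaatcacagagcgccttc
Hsd17b7, chr1:169969242-169969455: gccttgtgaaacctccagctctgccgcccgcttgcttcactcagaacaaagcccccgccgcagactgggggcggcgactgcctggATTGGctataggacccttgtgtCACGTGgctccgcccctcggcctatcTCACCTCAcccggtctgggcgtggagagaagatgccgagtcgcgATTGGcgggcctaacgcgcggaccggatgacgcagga
The Ebp window holds 2 CCAAT sites and the Sc5d window 1, and the E-box is in the Sc5d and Hsd17b7 windows. The CCAAT of Cyp51 lies in the end of its window, which is not printed.

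To ask which enzymes had the most transcript, levels were compared on the TPM scale, which divides by transcript length. The SDs of this order pool both diets, so they include any difference between diets. Sc5d, the desaturase that puts in a double bond of the ring, was the highest with 277 ± 85.7 TPM (SD, n = 9 livers), 12.7-fold over the lowest. By diet, Sc5d was at 228 ± 82.4 TPM (SD, n = 5) on chow and 337 ± 41.7 (SD, n = 4) on HSD. Ebp, the isomerase before it, followed with 183 ± 30.0 TPM. The middle of the order was Msmo1 at 99.4 ± 22.3, Dhcr7 at 88.4 ± 14.2, Nsdhl at 57.7 ± 10.8, Cyp51 at 53.6 ± 6.97 and Sqle at 50.6 ± 12.7 TPM. Lss and Hsd17b7 were the lowest, both at 21.7 TPM, with SDs of 4.26 and 4.97. Neighbours in this order were separate in most livers, with Sc5d over Ebp in 8 of 9, Ebp over Msmo1 in 9 and Dhcr7 over Nsdhl in 9. Cyp51 over Sqle held in 5 of 9 livers and Lss over Hsd17b7 in 5, so these neighbours did not differ beyond their spread. The TPM of Lss carries an added uncertainty, because the length that its counts and TPM imply varied by 0.83 on the log2 scale over the livers, more than in 90.6% of 8786 genes. For Hsd17b7 the implied length varied by 0.52, more than in 77.1% of these genes.

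To ask whether HSD changed the transcripts of these enzymes, each gene was compared between the diets in an edgeR fit over all genes. Of the 9 members, 0 were called higher and 0 lower at an adjusted p under 0.05 in edgeR, where 6.67% of all genes tested were called. At an unadjusted p under 0.05 there were 4 members (Msmo1, Hsd17b7, Ebp and Sc5d), against 23.7% of all genes, 2 with a positive and 2 with a negative difference. DESeq2 called 1 member lower (Ebp) and limma voom called 0. The members' median log2 fold change was -0.07, beside -0.00 over all genes tested, and 4 of the 9 estimates were positive. On CPM the diets did not overlap for 2 members, Ebp and Msmo1, both lower on HSD, against 11.3% of all genes tested. On TPM the diets overlapped for both. In bulk liver, fewer cells of a type and less RNA per cell cannot be told apart.

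**Figure D1:**
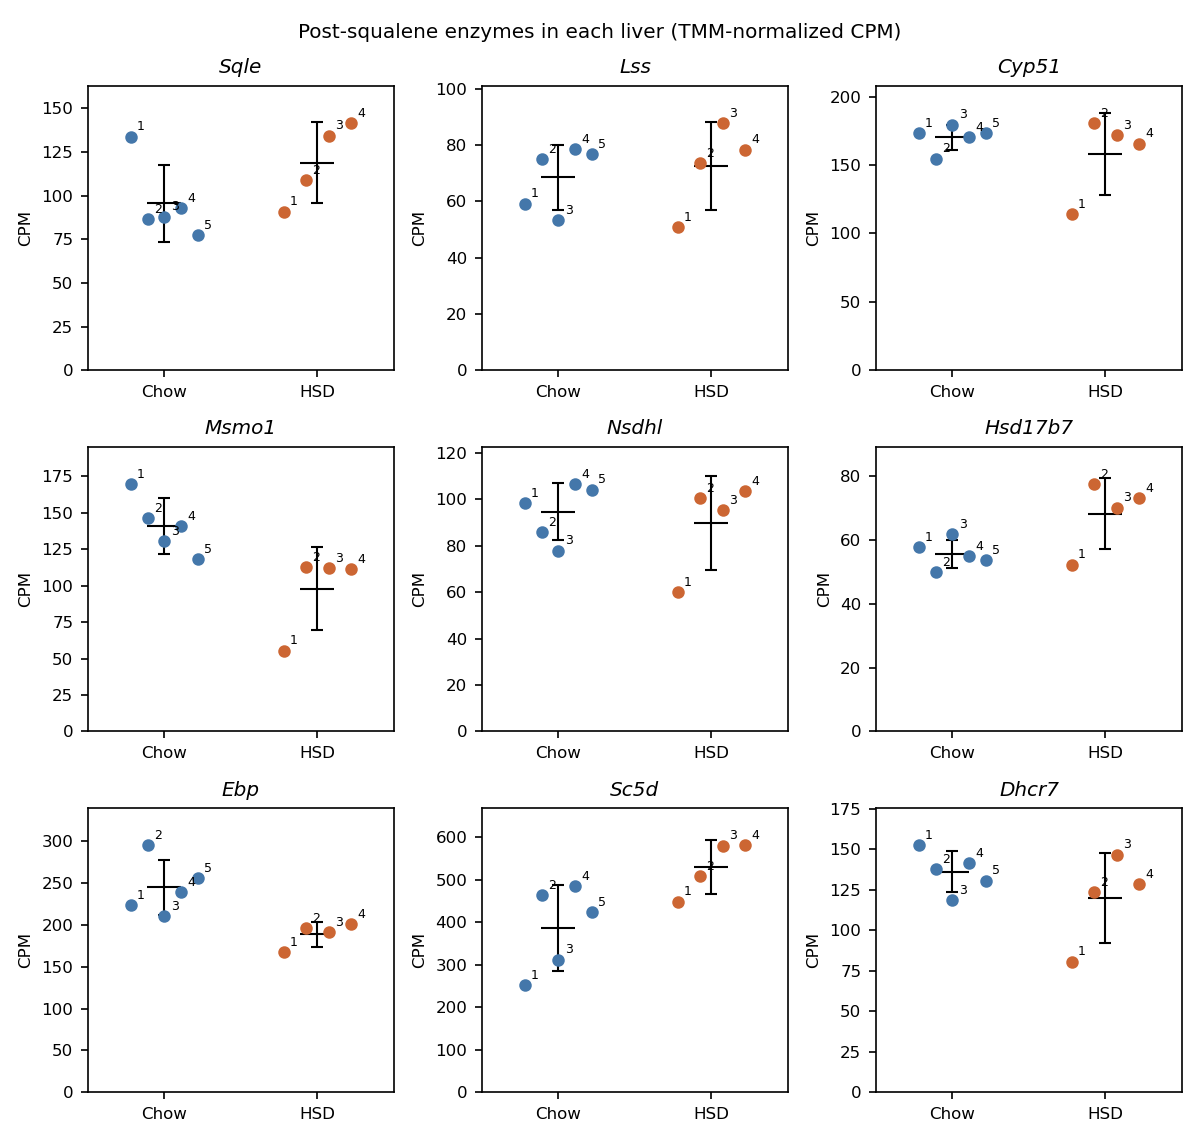
TMM-normalized CPM of each of the 9 members in each liver (points, 5 Chow and 4 HSD), with the mean and SD of each diet. On this scale the diets do not overlap for Ebp and Msmo1, which were lower on HSD, and HSD 1 is the lowest HSD liver in all 9 panels.

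Sqle, the squalene epoxidase that is a rate-limiting step after squalene, was at 134, 86.4, 88.0, 93.0 and 77.5 CPM in Chow 1 to 5 and at 90.9, 109, 134 and 142 in HSD 1 to 4. The chow livers lay close together except Chow 1, which was as high as HSD 3, and the diets overlapped. The means were 95.7 ± 22.03 CPM (SD, n = 5) on chow and 118.96 ± 23.3 (SD, n = 4) on HSD. The log2 fold change was 0.31 (SE 0.17, 95% interval -0.05 to 0.68, edgeR adjusted p = 0.286). Without Chow 1 it was 0.46, with an edgeR adjusted p of 0.0497. The difference in log2 CPM was 0.01 within the first label series, which holds Chow 1 and HSD 1, and 0.83 within the second, which holds 1 chow liver.

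Lss, the cyclase that makes lanosterol, was at 59.2, 75.1, 53.4, 78.6 and 76.8 CPM on chow and 50.9, 73.8, 87.8 and 78.4 on HSD. Both diets spanned nearly the same range, with means of 68.6 ± 11.5 (SD, n = 5) and 72.7 ± 15.7 (SD, n = 4). The log2 fold change was 0.08 (SE 0.16, 95% interval -0.27 to 0.43, edgeR adjusted p = 0.800), and on log2(TPM + 1) it was -0.08. Cyp51, the cytochrome P450 that acts on lanosterol, was the steadiest member on chow, at 173, 155, 179, 171 and 173 CPM, beside 114, 181, 172 and 166 on HSD. Apart from HSD 1, which was low, the HSD values of Cyp51 lay among or just above the chow values. Its log2 fold change was -0.11 (SE 0.12, 95% interval -0.38 to 0.16, edgeR adjusted p = 0.653), and 0.02 without HSD 1.

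Msmo1, the methyl sterol oxidase of the demethylase complex, was at 169.7, 146, 130.4, 141 and 118.1 CPM in Chow 1 to 5 and at 55.4, 113, 112 and 111 in HSD 1 to 4. On CPM the diets did not overlap, although Chow 5 was only slightly above the upper 3 HSD livers. Means were 141 ± 19.3 CPM (SD, n = 5) and 97.9 ± 28.4 (SD, n = 4), a log2 fold change of -0.53 (SE 0.19, 95% interval -0.94 to -0.11, edgeR adjusted p = 0.120). The estimate was -0.33 without HSD 1 and between -0.60 and -0.46 without any other single liver. In log2 CPM the difference was -0.89 within the first label series, which holds HSD 1, and -0.08 within the second.

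Nsdhl, the dehydrogenase of the complex, was at 98.3, 85.8, 77.9, 107 and 104 CPM on chow and 60.0, 100.5, 95.3 and 104 on HSD. Its diets overlapped, with a log2 fold change of -0.07 (SE 0.16, 95% interval -0.41 to 0.27, edgeR adjusted p = 0.821), which turned to 0.08 without HSD 1 and to 0.07 on log2(TPM + 1). Hsd17b7, the reductase that ends each demethylation, went the other way, with 57.7, 49.7, 61.8, 54.9 and 53.5 CPM on chow and 52.2, 77.4, 70.0 and 73.0 on HSD. The last 3 HSD livers were above every chow liver, and HSD 1 was inside the chow range. Means of Hsd17b7 were 55.5 ± 4.52 CPM (SD, n = 5) and 68.2 ± 11.1 (SD, n = 4), a log2 fold change of 0.30 (SE 0.11, 95% interval 0.05 to 0.55, edgeR adjusted p = 0.142). Without HSD 1 it was 0.40, with an edgeR adjusted p of 0.0480. The members of this complex therefore had estimates of both signs, of which none passed the test with all 9 livers.

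Ebp, the isomerase that shifts a double bond of the ring, was at 223, 295, 209.9, 239 and 255 CPM in Chow 1 to 5 and at 167, 196, 191 and 201 in HSD 1 to 4. On CPM every HSD liver was below every chow liver. Means were 244 ± 33.0 (SD, n = 5) and 189 ± 14.9 (SD, n = 4), a log2 fold change of -0.37 (SE 0.11, 95% interval -0.61 to -0.13, edgeR adjusted p = 0.0662). Ebp passed in DESeq2 (-0.38, adjusted p = 0.0173) and in edgeR without Chow 1 (-0.41, adjusted p = 0.0407), and the difference in log2 CPM was -0.40 and -0.38 within the label series. On TPM the diets overlapped, with 157 to 235 on chow and 150.2 to 186 on HSD, and the difference in log2(TPM + 1) was -0.19 (limma adjusted p = 0.425), or -0.33 relative to the median of all genes on that scale, which was 0.14.

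Sc5d, whose product is the substrate of Dhcr7, was at 252, 463, 312, 485 and 423 CPM on chow and at 448, 508, 580.3 and 581 on HSD. Chow 1 and Chow 3 were low, and HSD 1 lay below Chow 2 and Chow 4, so the diets overlapped. Means were 387 ± 101 (SD, n = 5) and 529.6 ± 64.0 (SD, n = 4), a log2 fold change of 0.45 (SE 0.18, 95% interval 0.06 to 0.85, edgeR adjusted p = 0.155). The low chow livers also had the lowest Dbp, a clock output gene, of their diet. It was at 43.3 CPM in Chow 1 and 27.4 in Chow 3, against 114 to 129 in the others. A clock covariate was made as the log2 CPM of Arntl less that of Dbp, both chosen after their values were seen. With it, the log2 fold change of Sc5d was 0.66 (edgeR adjusted p = 0.0148). The part of clock state in the level of Sc5d was not tested beyond this fit.

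Dhcr7, the reductase that makes cholesterol, was at 152, 138, 118.4, 141 and 131 CPM on chow and 80.6, 124, 147 and 129 on HSD. The upper 3 HSD livers lay within the chow range. Its log2 fold change was -0.18 (SE 0.15, 95% interval -0.51 to 0.14, edgeR adjusted p = 0.494) and -0.03 without HSD 1.

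**Figure D2:**
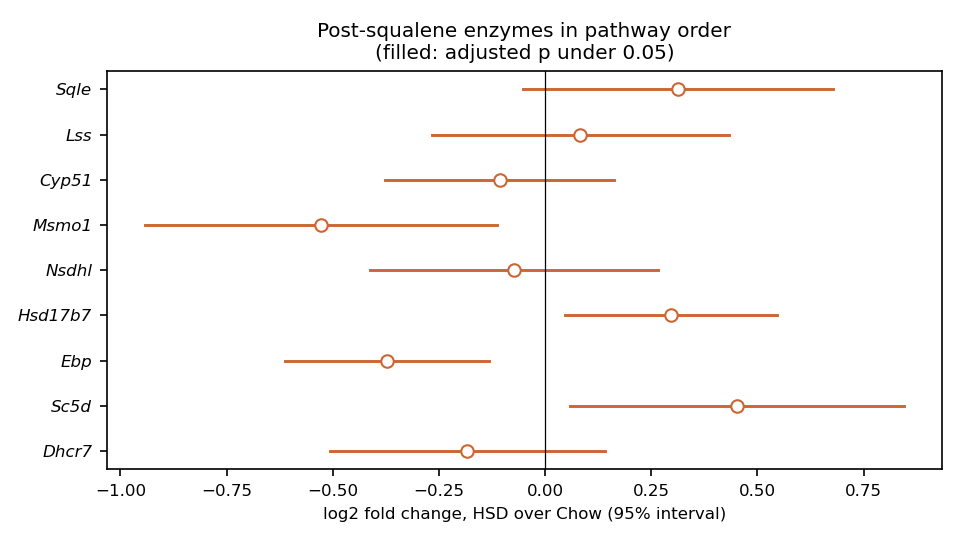
Log2 fold change, HSD against Chow, with its 95% interval from edgeR for the 9 members in pathway order. A filled point would have an adjusted p under 0.05 and none is filled, while the intervals of Msmo1, Hsd17b7, Ebp and Sc5d do not reach 0.

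HSD 1 was the lowest HSD liver for 9 of 9 members and the lowest of all 9 livers for 6. With each gene centred on its mean over the livers, the members' mean was -0.45 (log2) in HSD 1, 0.09 to 0.16 in the other HSD livers and -0.13 to 0.10 on chow. The mevalonate genes had a mean of -0.36 in the same liver, so the low level there was not limited to the 9 members. Its 9.15 CPM of Arntl and 35.1 CPM of Dbp were the highest and the lowest among the HSD livers. Over the whole list of 14 clock genes the centred mean was -0.18 in HSD 1 and -0.21 in HSD 3. That list mixes genes that moved in opposite directions between livers, such as Arntl and Dbp. Its mean therefore cannot show whether a liver stood apart in clock state. Gene by gene on CPM, HSD 1 was at an extreme of the HSD livers for all 14. It was the highest for Arntl, Clock, Npas2, Per1 and Cry1 and the lowest for the others. Clock was at 57.8 CPM against 42.5 to 46.6 in the other HSD livers, and Per3 at 3.40 against 7.92 to 12.7. Some margins were small, as for Per2, at 10.8 in HSD 1 and 11.1 in HSD 3. The part of clock state in the level of HSD 1 was not tested. Chow 1, the liver with high Saa2, held the lowest Sc5d of all 9 livers and the highest Sqle, Msmo1 and Dhcr7 on chow, and Chow 3 was the lowest chow liver for Lss, Nsdhl, Ebp and Dhcr7. Leaving out both Chow 1 and HSD 1, a setting chosen after seeing the data, gave 2 members higher in edgeR, Sqle at 0.57 (adjusted p = 0.0156) and Hsd17b7 at 0.42 (adjusted p = 0.0334).

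**Figure D3:**
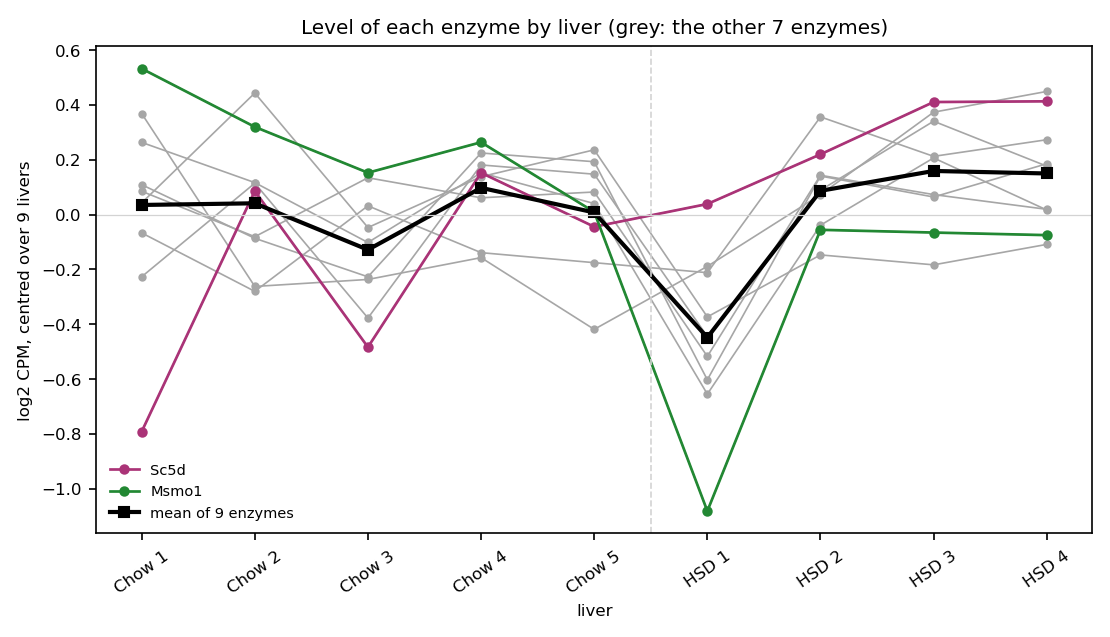
Log2 CPM of each member, centred on its mean over the 9 livers, by liver, with Sc5d, Msmo1 and the mean of the 9 drawn apart and the other 7 in grey. HSD 1 lies lowest for 6 of the 9 members, while Sc5d is lowest in Chow 1.

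The spread of single livers is shared by many members, so the balance between consecutive members was also compared, as the log2 ratio of their TPM within each liver. Ratios cancel a level that a liver shares over the pathway. There were 8 such ratios, tested by an exact permutation test over all splits of the livers (two-sided, smallest possible p = 0.00794), with p-values adjusted over the 8. Of these, 5 passed (adjusted p under 0.05) with all 9 livers. Each ratio shares a member with the next, so the 8 are not independent results. How often ratios of other gene pairs would pass was not tested. Among single genes, 23.7% had an unadjusted edgeR p under 0.05.

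The ratio with the greatest difference between diets was that of Ebp to Sc5d. Its log2 value was 0.39, -0.25, -0.04, -0.51 and -0.38 in Chow 1 to 5 and -0.93, -0.97, -1.10 and -0.98 in HSD 1 to 4. The diets were apart and HSD 1 stood with the other HSD livers. The mean was -0.16 ± 0.35 (SD, n = 5) on chow and -0.99 ± 0.07 (SD, n = 4) on HSD, a difference of -0.84 (exact permutation p = 0.00794, adjusted p = 0.0381), and -0.85 and -0.66 within the label series. The share of Sc5d in the summed TPM of the 9 members was 17.9% to 32.1% on chow and 35.5% to 40.6% on HSD. This share is made from the same TPM values as the ratio and is not separate support. The next ratio in the path, Sc5d to Dhcr7, was 1.29 ± 0.49 (SD, n = 5) on chow and 1.95 ± 0.16 (SD, n = 4) on HSD, a difference of 0.65 (exact permutation p = 0.0238, adjusted p = 0.0381), and 0.82 and 0.19 within the label series.

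Around Msmo1, the ratio of Cyp51 to Msmo1 was 0.51 higher on HSD (exact permutation p = 0.0159, adjusted p = 0.0381) and that of Msmo1 to Nsdhl was lower by a difference of -0.55 (exact permutation p = 0.0238, adjusted p = 0.0381). Both differences were smaller within the second label series, at 0.16 and -0.13, than within the first, at 0.69 and -0.69. On the CPM scale the ratio to Nsdhl had a difference of -0.48 and lost its call (exact permutation, adjusted p = 0.0508). The ratio of Sqle to Lss was higher on HSD by 0.58 (exact permutation p = 0.0238, adjusted p = 0.0381) but by 0.25 on CPM (exact permutation, adjusted p = 0.357), where the varying implied length of Lss does not enter. Hsd17b7 to Ebp was the reverse, with 0.59 on TPM (exact permutation, adjusted p = 0.0635) and 0.65 on CPM (exact permutation, adjusted p = 0.0317). The ratios of Lss to Cyp51, with a difference of -0.13, and of Nsdhl to Hsd17b7, with -0.32, did not pass on TPM (exact permutation, adjusted p = 0.468 and 0.209). On CPM, where implied length does not enter, Nsdhl to Hsd17b7 had -0.38 (exact permutation, adjusted p = 0.0529).

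With 1 liver left out, the smallest p the exact test can reach is 0.0286 for 4 against 4 livers and 0.0179 for 5 against 3. Ebp to Sc5d then ranged from -0.93 to -0.70 and Sc5d to Dhcr7 from 0.45 to 0.75. All 5 ratios lost their call without Chow 1, Chow 2, Chow 4 or any of the HSD livers, and Msmo1 to Nsdhl also without Chow 3, while the sign of each was kept. After adjustment, a ratio at the smallest p passes only if other ratios reach a low p too. A lost call therefore does not show that a ratio depended on the liver left out. For Ebp to Sc5d the diets stayed apart whichever liver was left out. Without Chow 3, Hsd17b7 to Ebp and Nsdhl to Hsd17b7 passed in turn, at 0.73 and -0.47 (exact permutation, adjusted p = 0.0381 for each).

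**Figure D4:**
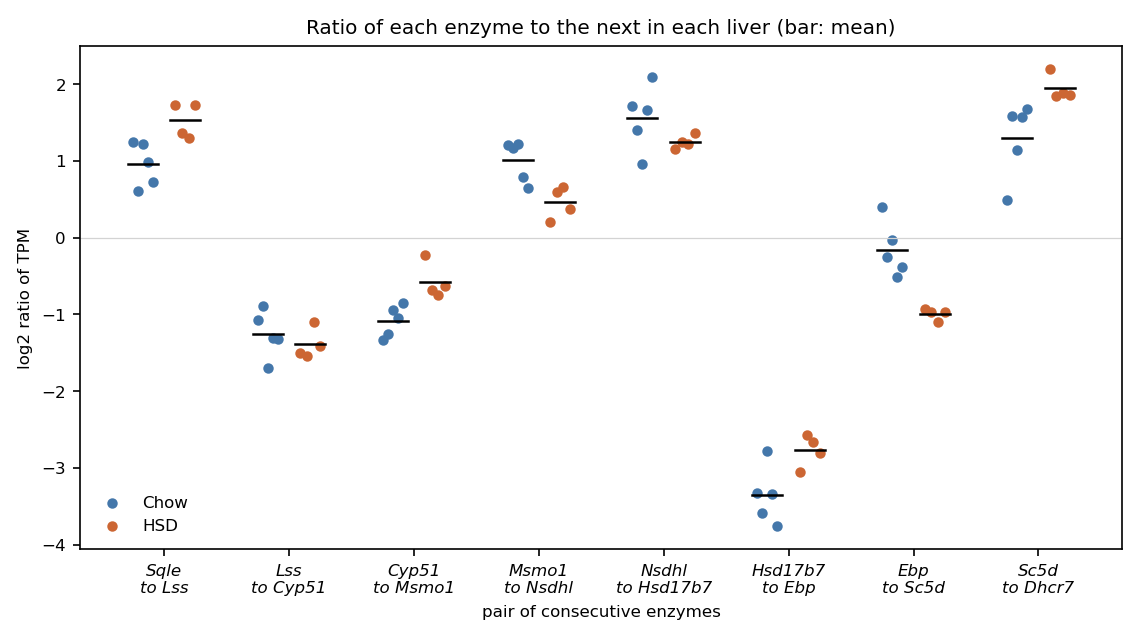
Log2 ratio of TPM between consecutive members in each liver (points), with the mean of each diet as a bar, for the 8 ratios. The HSD livers lie below all chow livers for Ebp to Sc5d, between -1.10 and -0.93 against -0.51 to 0.39.

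The proteins that supply electrons, scaffold or relate to these enzymes were counted as a list of 13 tested genes. Of these, 2 were higher and 2 lower in edgeR, beside 3.44% and 3.23% of all genes tested. Pgrmc2, a heme-binding membrane protein, was at 43.3, 45.1, 44.9, 48.5 and 41.3 CPM on chow and 82.4, 79.5, 78.5 and 83.0 on HSD, a log2 fold change of 0.86 (SE 0.07, edgeR adjusted p = 0.000136). Its relative Pgrmc1, which in human cells binds P450 enzymes such as CYP51A1, moved the other way, from 780.5 ± 52.5 CPM (SD, n = 5) to 597 ± 29.9 (SD, n = 4), a log2 fold change of -0.39 (edgeR adjusted p = 0.0324). On CPM the diets did not overlap for either paralog, against 11.3% of all genes tested. On TPM they stayed apart for Pgrmc2 but overlapped for Pgrmc1, at 429 to 637 on chow and 447 to 500 on HSD. Cyb5a, the cytochrome b5 that donates electrons to Msmo1 and Sc5d, was lower, from 601 ± 36.4 to 458 ± 50.4 CPM, with a log2 fold change of -0.39 (edgeR adjusted p = 0.0406), whereas its outer mitochondrial relative Cyb5b had 0.40 (edgeR adjusted p = 0.0625). Por, the reductase that feeds Cyp51 and Sqle, had -0.54 with wide spread (edgeR adjusted p = 0.163), Ebpl, a relative of Ebp, had 0.32 (adjusted p = 0.0899) and Erg28, a scaffold of the demethylase complex in yeast, had -0.30 (adjusted p = 0.167). Among other enzymes between squalene and cholesterol, Tm7sf2 and Lbr, which reduce a double bond of the ring, were not called, with log2 fold changes of -0.02 and 0.24 (edgeR adjusted p = 0.9497 and 0.373).

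Ahead of squalene, 2 of 10 mevalonate pathway genes were higher and 0 lower in edgeR, with a median log2 fold change of 0.05. Acat2, the thiolase that starts the path and has a close copy in Acat3 with which it may trade reads, was at 60.3, 84.5, 58.8, 88.2 and 83.4 CPM on chow and 117.5, 112, 131 and 151 on HSD, a log2 fold change of 0.77 (SE 0.14, edgeR adjusted p = 0.00926). The last steps to squalene did not pass, with Fdps at 0.03 (edgeR adjusted p = 0.919), and Mvk, the mevalonate kinase, had -0.66 (edgeR adjusted p = 0.113). On the TPM scale 1 of the 10 was called, Acat2, and within the first label series alone 0 were. The members after squalene were thus called in 0 of 9 genes and those before it in 2 of 10, where 6.67% of all genes tested were called. Neither the difference between these counts nor their distance from that share was tested.

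Among 11 tested genes of SREBP control and LDL uptake, 1 was higher and 0 lower, beside 3.44% and 3.23% of all genes tested. Their median log2 fold change was 0.18. Insig2, which holds SREBP precursors in the membrane, was at 139 ± 38.9 CPM (SD, n = 5) on chow and 253 ± 23.2 (SD, n = 4) on HSD, with 0.86 as its log2 fold change (edgeR adjusted p = 0.0143). Srebf2, which codes for SREBP-2, had a log2 fold change of 0.00, while Insig1, an SREBP-2 target, had 0.55 (edgeR adjusted p = 0.0743) and was called in DESeq2 and without Chow 1. Of 12 tested genes for the fate of cholesterol, 0 were higher and 2 lower, beside the same shares of all genes. The 2 were the bile acid enzymes Cyp7b1, with a log2 fold change of -1.90 (edgeR adjusted p = 0.000377), and Cyp7a1, the rate-limiting one, with -1.66 (edgeR adjusted p = 0.0415).

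To find genes that varied over the livers as the members did on average, the centred log2 CPM of 12082 other genes was set against the members' mean profile over the 9 livers, by the root mean square of the differences. Tmem97, a membrane protein of the same family as Ebp, was the closest at 0.0681, with 84.7, 80.3, 71.7, 77.5 and 80.6 CPM on chow and 55.2, 82.1, 82.5 and 78.4 on HSD. Its profile has the dip in HSD 1 and no difference between diets past the test (log2 fold change -0.08, edgeR adjusted p = 0.719). Mettl14 at 0.0764, Nr3c2 at 0.0795 and Prnp at 0.0819 came next. Single members were farther from their own mean than Tmem97, from 0.115 for Nsdhl to 0.366 for Sc5d, and Fdps ranked 18 with 0.117. A small distance favours genes that vary little, and the livers share library and depth across genes.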

How the data were processed

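Poly-A libraries of liver RNA were sequenced by the authors and quantified with kallisto on GRCm38, with its version not stated in any source used here. The deposited tables hold estimated counts per symbol, not normalized, and TPM values, scaled by the authors per library. How transcripts were summed to symbols is not stated. Of the deposited counts above 0, 34.1% were whole (within 1e-06), and 99.1% of these were even. The tables hold 0 columns of other samples. Members and lists were chosen with earlier results of these data known.

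Counts were rounded, filtered with filterByExpr (minimum count 10, total 15), scaled by TMM and compared by the quasi-likelihood test of edgeR 4.0.16 under R 4.3.3, with diet as the factor, 7 residual degrees of freedom, with Benjamini-Hochberg adjustment over 12091 genes. CPM values use TMM library sizes, with a prior count of 2 before taking log2. Biological variation (edgeR common coefficient) was 0.187. The members were all named, with genes past the test and up to 4 further genes of the highest TPM per list, and the 8 genes nearest to the members' mean profile. The genes that describe single livers (Saa2, Arntl, Dbp) were chosen after their values were seen. Ratios were tested by exact permutation. Scripts were tested on simulated data.

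Alternatives were DESeq2 1.42.0, limma 3.58.1 on voom and on log2(TPM + 1) or log2(TPM + 0.1) with and without a filter at a mean TPM of 1, other size factors, library totals, no filter, halved counts, the label series and clock genes as covariates, the first label series alone, the replicate number as a block, each liver left out, an adjusted p under 0.01, and ratios on CPM. The clock covariate was the log2 CPM of Arntl less that of Dbp, genes chosen after their values were seen. The setting without Chow 1 and HSD 1 was added after seeing the data. Reads were not used here, and some genes counted in the lists are not reported here by name.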

Additional observations from a re-analysis of the deposited data

Results flagged for a closer look

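Within the HSD group, HSD 1 lay far below the other 3 livers for Msmo1, by a difference of -1.02 (log2 CPM) from their mean, and for Nsdhl, by -0.73. The mean of the 9 members stood apart in the same liver, by -0.58. These were 3 of 22 groups of livers examined, where chance gives about 1.1, and the 3 share the same liver and genes.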

How the results depend on the processing

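Ebp and Msmo1 stayed lower and Hsd17b7 and Sc5d higher on HSD in all 23 alternatives run. Calls were gained by Ebp in DESeq2 (-0.38), by Sc5d with the clock covariate (0.66) and, without both Chow 1 and HSD 1, by Sqle (0.57) and Hsd17b7 (0.42). The numbers of members higher, 0 with all livers, were then 1 with the clock covariate and 2 without both livers, and 1 member was lower in DESeq2. The sign of Sqle turned in the first label series (-0.0060) and that of Lss on log2(TPM + 1) (-0.084, also with no filter), on log2(TPM + 0.1) (-0.089), with the label covariate (-0.026) and in the first label series (-0.097). Log2(TPM + 1), with and without the filter, turned Cyp51 to 0.038 and Nsdhl to 0.071, log2(TPM + 0.1) to 0.039 and 0.072, and log2(TPM + 1) moved the median of all genes to 0.14, against which they were -0.097 and -0.064. Nsdhl was also 0.035 with the clock covariate, and without both livers Cyp51 was 0.028, Nsdhl 0.093 and Dhcr7 0.0096. With each liver left out, members higher and members lower each ranged from 0 to 1, mevalonate genes higher from 2 to 3 and SREBP genes higher from 1 to 3. The estimates then ranged from 0.22 to 0.46 for Sqle, -0.019 to 0.22 for Lss, -0.18 to 0.021 for Cyp51, -0.60 to -0.33 for Msmo1, -0.15 to 0.079 for Nsdhl, 0.23 to 0.40 for Hsd17b7, -0.42 to -0.30 for Ebp, 0.32 to 0.55 for Sc5d and -0.29 to -0.03 for Dhcr7. Mevalonate genes higher, 2 in all, were 1 (Acat2) in the 3 TPM fits and at an adjusted p under 0.01, and 0 in the first label series. SREBP genes higher were 3 (Insig2 and Insig1 among them) in DESeq2, with library totals, on log2(TPM + 1) and without both livers, 2 on log2(TPM + 0.1) (Insig2 and Insig1) and with the clock covariate (Insig2 and Stard4), and 0 in the first label series and at an adjusted p under 0.01.

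On CPM, the ratio of Sqle to Lss was 0.25, Msmo1 to Nsdhl -0.48 and Hsd17b7 to Ebp 0.65, and Lss to Cyp51 reversed to 0.20. With each liver left out, Sqle to Lss ranged from 0.49 to 0.65, Cyp51 to Msmo1 from 0.39 to 0.57, Msmo1 to Nsdhl from -0.64 to -0.46, Nsdhl to Hsd17b7 from -0.47 to -0.19, Hsd17b7 to Ebp from 0.49 to 0.73, Ebp to Sc5d from -0.93 to -0.70, Sc5d to Dhcr7 from 0.45 to 0.75 and Lss to Cyp51 from -0.24 to -0.04. The causes were not tested. Replicate numbers did not pair the livers, with correlations of -0.06 to 0.07 and 1 of 4 numbers best with its own. A replicate block gave 0 members higher, 0 lower, 2 mevalonate genes and 1 SREBP gene higher, and changed no call. With 5 and 4 mice, the 95% intervals of Lss (-0.27 to 0.43), Cyp51 (-0.38 to 0.16) and Nsdhl (-0.41 to 0.27) included 0. The smallest difference that could be detected with these mice was not tested.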
